A study of Homo sapiens with 18 samples.

Results

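The 3 arrays of Raji cells harvested at 8 h were compared with the 3 arrays harvested at 0 h, 6 of the 18 arrays of a time course. Members were chosen by the harvest time in the labels alone, and all 18417 genes that had a probe set naming a single gene were compared, each through its probe set of highest mean. Raji is a long-established B cell line that was derived from a patient's Burkitt lymphoma and carries Epstein-Barr virus. Per the labels, cells of both groups were first induced with sodium n-butyrate (3 mM) and phorbol ester (0.05 µM) and treated with maslinic acid (19 µM), and the other arrays were harvested at 4, 12, 24 and 48 h. The 0 h arrays carry the same treatment label as the 8 h arrays, so the comparison asks what differed between the start of the course and 8 h under all 3 compounds. The share of the 3 compounds, of their combination and of time in culture in any difference cannot be told apart in these 6 arrays. The labels call the 3 arrays of a time biological replicates and do not say whether they came from separate cultures. The p-values therefore rest on the spread between arrays of the same time. Except where a fit of fewer arrays is named, that spread was estimated from all 18 arrays of the course.

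Butyrate blocks histone deacetylases, and phorbol ester takes the place of diacylglycerol, the lipid messenger that switches on protein kinase C and the RASGRP exchange factors. Both routes feed the RAS and ERK cascade, which induces early transcription factors such as EGR1 and FOS and then the phosphatases and Sprouty-related proteins that damp the cascade again. In B cells the same messenger is made downstream of the B cell receptor, whose signal passes through the kinases LYN, SYK and BTK and the adaptor BLNK. A B cell that leaves the germinal centre lowers PAX5 and its targets and raises IRF4 as it turns into a plasma cell. Maslinic acid is a plant triterpene known from olives.

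In what follows replicate 2 without a time is that of 8 h. Values are log2 intensities as deposited, so a difference of 1 is a 2-fold difference, and differences carry the model's standard error (SE). Interquartile ranges were 3.07 and 3.15 on replicates 1 and 3 of 8 h, 2.37 on replicate 2 of 8 h and 2.74 to 3.00 on the 0 h arrays. Replicate 2 of 8 h therefore stood apart: over the 4605 genes with the lowest 0 h levels it lay above the mean of replicates 1 and 3 by a median of 0.30, and over the 4604 genes with 0 h levels from 4.39 to 6.28 its median difference from that mean was -0.35. Its Pearson correlations over genes with replicates 1 and 3 were 0.97 and 0.96, against 0.99 between replicates 1 and 3. Of the 8 listed B cell markers 5 were measured, and MS4A1, the surface protein CD20, ran from 9.58 to 10.53 on the 0 h arrays. The summed level of the 5 B cell markers was 38.43 to 39.07 at 0 h and 35.31, 31.66 and 36.51 on replicates 1, 2 and 3 of 8 h, with only PAX5 past the test. Markers of T cells (7 measured), monocytes and macrophages (8), epithelium and fibroblasts (9) and erythroid cells and megakaryocytes (5) gave 0 calls with limma and, at an unadjusted p under 0.05, 0, 1, 0 and 0 genes; their summed levels at 8 h were 24.61 to 27.34, 28.90 to 29.30, 32.45 to 33.68 and 16.49 to 16.83, against 24.65 to 25.14, 28.16 to 29.78, 32.74 to 33.98 and 16.79 to 17.76 at 0 h. The T cell genes CD3D and CD3E averaged 3.84 and 3.41 at 8 h, and the monocyte gene CD14 averaged 3.20. Fewer cells of a state and less RNA per cell cannot be told apart in such bulk samples.

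At 8 h 1230 of 18417 genes had changed (6.68%), 644 of them higher (3.5%) and 586 lower (3.18%). At least 2-fold changes were found for 566 genes (3.07%), 285 higher and 281 lower. The median difference over all genes was -0.02, and 39 of the changed genes differed by 2 or more on the log2 scale, 23 upward and 16 downward. All 3 arrays of 8 h lay on 1 side of the 3 arrays of 0 h for 3539 genes (19.2%) and for 1211 of the 1230 changed genes. Without replicate 2 of 8 h 1004 genes had changed (5.45%), 672 higher (3.65%) and 332 lower (1.8%), so the higher share of the calls went from 52.4% to 66.9%. Leaving out replicate 2 of 0 h gave 759 calls, and a fit of the 6 arrays alone gave 575. In both fits with and without replicate 2 of 8 h 841 genes had changed in the same direction (4.57%), 521 higher and 320 lower. The 389 genes called only with that array were mostly lower (266), and the 163 called only without it were mostly higher (151). None (0) of the 1230 genes called with all arrays differed in sign between the fits. For the 1211 of them with arrays all on 1 side no other outcome was possible. Called genes were unevenly spread over the range of levels: 20 higher and 3 lower calls fell among the 4605 genes with the lowest 0 h levels, against 306 and 399 among the 4604 with the highest.

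**Figure D1:**
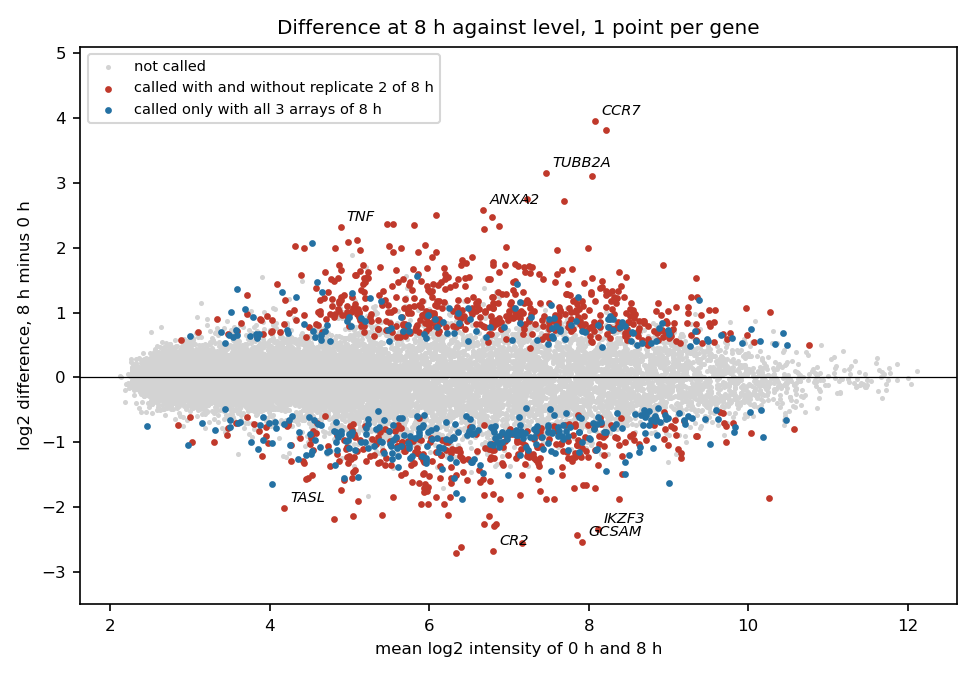
The difference at 8 h (8 h minus 0 h, log2) is plotted against the mean log2 intensity of the 6 arrays, 1 point per gene, with grey points not called, red points called with and without replicate 2 of 8 h and blue points called only with it. The largest rises reach 3.96 (CCR7) and the largest falls -2.71 (RASSF6), and blue points lie mostly below 0 (266 of 389).

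EGR1, the zinc finger factor that the ERK cascade induces early, stood at 5.89, 6.05 and 6.98 on the 0 h arrays and at 10.16, 10.23 and 9.97 on the 8 h arrays. Every 8 h array was far above every 0 h array, and the 8 h arrays lay closer together than the 0 h arrays. The difference was 3.82 (SE 0.33, adjusted p = 6.34e-06), 14.1-fold, and it was 3.76 without replicate 2. FOS, the AP-1 subunit, was at 4.80, 3.65 and 4.42 against 6.30, 6.09 and 5.71, higher by 1.74 (SE 0.39, adjusted p = 0.00977), or by 1.42 without replicate 2 of 0 h (adjusted p = 0.0675). These were the only 2 of 20 measured EGR and AP-1 genes past the test with all arrays, and the list's median was 0.05. JUN and FOSB, partners and relatives of FOS, differed by 0.10 and -0.08 and did not pass. IER2, another early gene, passed only without replicate 2 (0.75 with it, adjusted p = 0.0902; 1.02 without it, adjusted p = 0.0205).

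Promoters of 4 genes that rose are shown because each holds a match to a motif of a factor of these pathways; they were picked for these matches. AP-1 sites were in 3 of 19 promoters of the 25 largest rises and in 2 of 20 of the 25 largest falls (CLEC2D and SMAD1), and NF-kappaB sites in 2 of 19 and 3 of 20. Each is the 250 bases before the start site, written 5′ to 3′ on the gene's strand, from RefSeq on GRCh38.p14, with the matches in capitals.
EGR1 promoter, chr5:138465229-138465478, plus strand: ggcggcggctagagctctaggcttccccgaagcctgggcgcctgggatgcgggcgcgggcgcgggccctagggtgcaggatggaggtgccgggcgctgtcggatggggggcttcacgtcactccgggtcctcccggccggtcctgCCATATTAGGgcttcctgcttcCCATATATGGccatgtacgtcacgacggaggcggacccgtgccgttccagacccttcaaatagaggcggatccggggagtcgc
TUBB2A promoter, chr6:3157545-3157794, minus strand: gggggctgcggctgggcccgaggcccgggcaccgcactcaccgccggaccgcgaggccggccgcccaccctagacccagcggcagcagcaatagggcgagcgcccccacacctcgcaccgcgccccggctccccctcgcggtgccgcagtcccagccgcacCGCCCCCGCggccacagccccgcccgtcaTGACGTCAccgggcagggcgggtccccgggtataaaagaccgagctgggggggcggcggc
ANXA2 promoter, chr15:60397987-60398236, minus strand: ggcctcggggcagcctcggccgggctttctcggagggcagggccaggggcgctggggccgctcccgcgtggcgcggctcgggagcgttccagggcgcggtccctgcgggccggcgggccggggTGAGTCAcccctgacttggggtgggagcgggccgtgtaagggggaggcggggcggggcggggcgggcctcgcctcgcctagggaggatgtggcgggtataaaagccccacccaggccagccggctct
TNFRSF9 promoter, chr1:7940840-7941089, minus strand: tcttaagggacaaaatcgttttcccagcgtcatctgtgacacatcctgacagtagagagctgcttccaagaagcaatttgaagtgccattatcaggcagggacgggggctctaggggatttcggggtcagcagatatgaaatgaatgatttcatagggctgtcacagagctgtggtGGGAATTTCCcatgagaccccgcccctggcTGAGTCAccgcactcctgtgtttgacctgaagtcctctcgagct
The capitals mark, in EGR1, CArG boxes (the element bound by serum response factor) that begin 105 and 83 bases before the start site. In TUBB2A they mark an EGR1 site at 89 bases and a CRE site at 60 bases, in ANXA2 an AP-1 site at 127 bases, and in TNFRSF9 an NF-kappaB site at 74 bases and an AP-1 site at 44 bases. A match describes the letters in the window and is no evidence of binding.

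Both strands of all 14239 promoters with a table entry were searched for 8 motifs, and matches of different motifs may overlap. AP-1 sites (TGANTCA) were found in 4.77% of the 545 promoters of genes called higher and 4.21% of the 499 of genes called lower, against 4.91% of all promoters. CRE sites (TGACGTCA) were in 4.22% and 2.81%, against 2.37% of all. EGR1 sites (GCGTGGGCG or GCGGGGGCG) were in 9.91% and 7.41%, against 7.5%. GC boxes (GGGCGG), the letters bound by SP1, were in 72.3% of promoters of higher genes, 59.9% of those of lower genes and 57.5% of all. Promoters of higher genes were also richer in G and C, with a median of 65.6% against 62.8% over all promoters. CArG boxes were in 1.47% and 1.4%, against 1.17%, and NF-kappaB sites in 7.71% and 8.62%, against 7.61%. The ETS site of PU.1 (GAGGAA) was in 23.1% and 26.5%, against 23.6%, and the MYC E box (CACGTG) in 8.44% and 11.6%, against 7.86%. These shares are descriptions with no test.

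Gene lists were read beside the shares over all genes. Of 695 measured list genes 49 had risen (7.05%) and 63 had fallen (9.06%), against 3.5% and 3.18% of all genes. The lists were chosen with earlier results of these data known, so their higher shares are no evidence of enrichment. In the list of phosphatase and Sprouty-family genes, drawn up around feedback on the ERK cascade, all calls were rises. Of 15 measured phosphatase and Sprouty-family genes 5 rose, 0 fell, and the list's median was 0.32, and the 5 rises passed in both fits. SPRED1, an inhibitor of RAS activation, was at 6.51, 6.58 and 6.07 at 0 h and at 8.21, 8.11 and 7.75 at 8 h, higher by 1.63 (SE 0.22, adjusted p = 0.000183). SPRED2 rose by 1.69 and the ERK phosphatase DUSP5 by 1.47, and neither had overlapping arrays. DUSP10 and DUSP2 rose by 1.07 and 0.93, and their calls hung on single arrays. Dropping replicate 2 of 0 h raised their adjusted p to 0.127 and 0.159. Dropping replicate 1 of 8 h gave 0.105 and 0.108, and dropping replicate 3 of 8 h gave 0.0607 and 0.0642. DUSP10 also missed the threshold once replicate 1 of 0 h was dropped (0.104). SPRED1, SPRED2 and DUSP5 kept their calls under every alternative. ETV5, an ETS factor downstream of ERK, went from 3.97, 3.42 and 4.04 to 6.25, 5.74 and 5.45, a rise of 2.0 (SE 0.22, adjusted p = 3.92e-05).

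The calls among genes of diacylglycerol signalling were all falls. Of 26 measured genes of protein kinase C and diacylglycerol signalling 0 rose and 3 fell, all of them RASGRP exchange factors, which activate RAS-family proteins and of which RASGRP1 and RASGRP3 bind diacylglycerol. RASGRP3 was at 9.38, 9.15 and 9.46 at 0 h and at 7.43, 7.13 and 7.77 at 8 h. Its arrays did not overlap, and the fall was -1.88 (SE 0.27, adjusted p = 0.000354). RASGRP1 fell by 1.21 (adjusted p = 0.00852), and RASGRP2 by 0.73, a call lost without replicate 2 (adjusted p = 0.129). The list's median was -0.08.

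CCR7, the chemokine receptor that guides lymphocytes into lymph nodes, had the largest rise. It was at 5.67, 4.69 and 7.93 on the 0 h arrays and at 10.09, 10.30 and 9.78 on the 8 h arrays. The 0 h arrays were widely spread, yet all lay below the 8 h arrays, and the difference was 3.96 (SE 0.59, adjusted p = 0.000487), 15.5-fold. Other homing receptors passed only downward. Of 16 measured, CCR7 rose and 4 fell: the scavenging receptor ACKR4 (-2.62), the germinal centre receptor P2RY8 (-1.54), the oxysterol receptor GPR183 (-1.31) and the integrin chain ITGA4 (-1.17). Without replicate 2 the calls of P2RY8 and GPR183 were lost (adjusted p = 0.0681 and 0.0674). A dimmer second probe set of ACKR4 differed by -0.22 (adjusted p = 0.834).

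TNF and TNF-family receptors moved in both directions. TNF, an inflammatory cytokine, was at 4.28, 3.31 and 3.59 against 6.54, 5.35 and 6.25, higher by 2.32 (SE 0.31, adjusted p = 0.000165), and replicate 2 was the lowest of the 8 h arrays. TNFRSF9, the costimulator 4-1BB whose promoter is shown above, was at 4.09, 3.50 and 4.49 against 6.99, 5.37 and 6.09, higher by 2.13 (SE 0.35, adjusted p = 0.001). CD83, a marker of activated B cells and dendritic cells, rose by 1.22, and the death receptor TNFRSF10B rose by 1.0. Lower were the death receptor FAS, from 7.79, 7.64 and 8.71 to 6.0, 6.05 and 6.66 (-1.81, SE 0.27, adjusted p = 0.000418), the memory B cell receptor CD27 (-1.62) and the plasma cell receptor TNFRSF17 (-0.90). In all 4 of 31 measured members rose and 3 fell, each with and without replicate 2, and the list's median was 0.03. The call of TNFRSF17 was lost without replicate 1 of 0 h or replicate 3 of 8 h (adjusted p = 0.0805 and 0.0576). Among 20 NF-kappaB subunits and inhibitors only CYLD, a deubiquitinase that restrains the pathway, passed (1.27, adjusted p = 0.00786). Without replicate 2 of 0 h CYLD missed the threshold (adjusted p = 0.0555). TNFAIP3, another restraining enzyme, differed by 1.19 and did not pass (adjusted p = 0.0634).

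SLAM-family and lectin receptors also split. SLAMF7, a receptor of plasma cells and natural killer cells, was at 6.07, 4.84 and 6.66 against 8.81, 8.77 and 8.23, higher by 2.75 (SE 0.36, adjusted p = 0.000147). The lectin receptor gene CLEC2B rose by 1.08. CLEC2D, which encodes a ligand of an inhibitory natural killer receptor, fell from 9.15, 8.93 and 9.11 to 6.58, 6.80 and 6.51 (-2.44, SE 0.21, adjusted p = 6.34e-06). Both of its groups were tight and far apart, and replicate 2 was the highest 8 h array. The SLAM receptor CD84 fell by 2.27, CLECL1 by 2.29, SLAMF6 by 1.62 and CD48 by 1.63, the last only with replicate 2 (adjusted p = 0.0546 without it). The call of SLAMF6 was lost without replicate 1 or 3 of 0 h or replicate 3 of 8 h (adjusted p = 0.123, 0.0899 and 0.144). With CD72, which fell by 0.97, 6 of 16 measured members fell and 2 rose, and the median was -0.19.

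**Figure D2:**
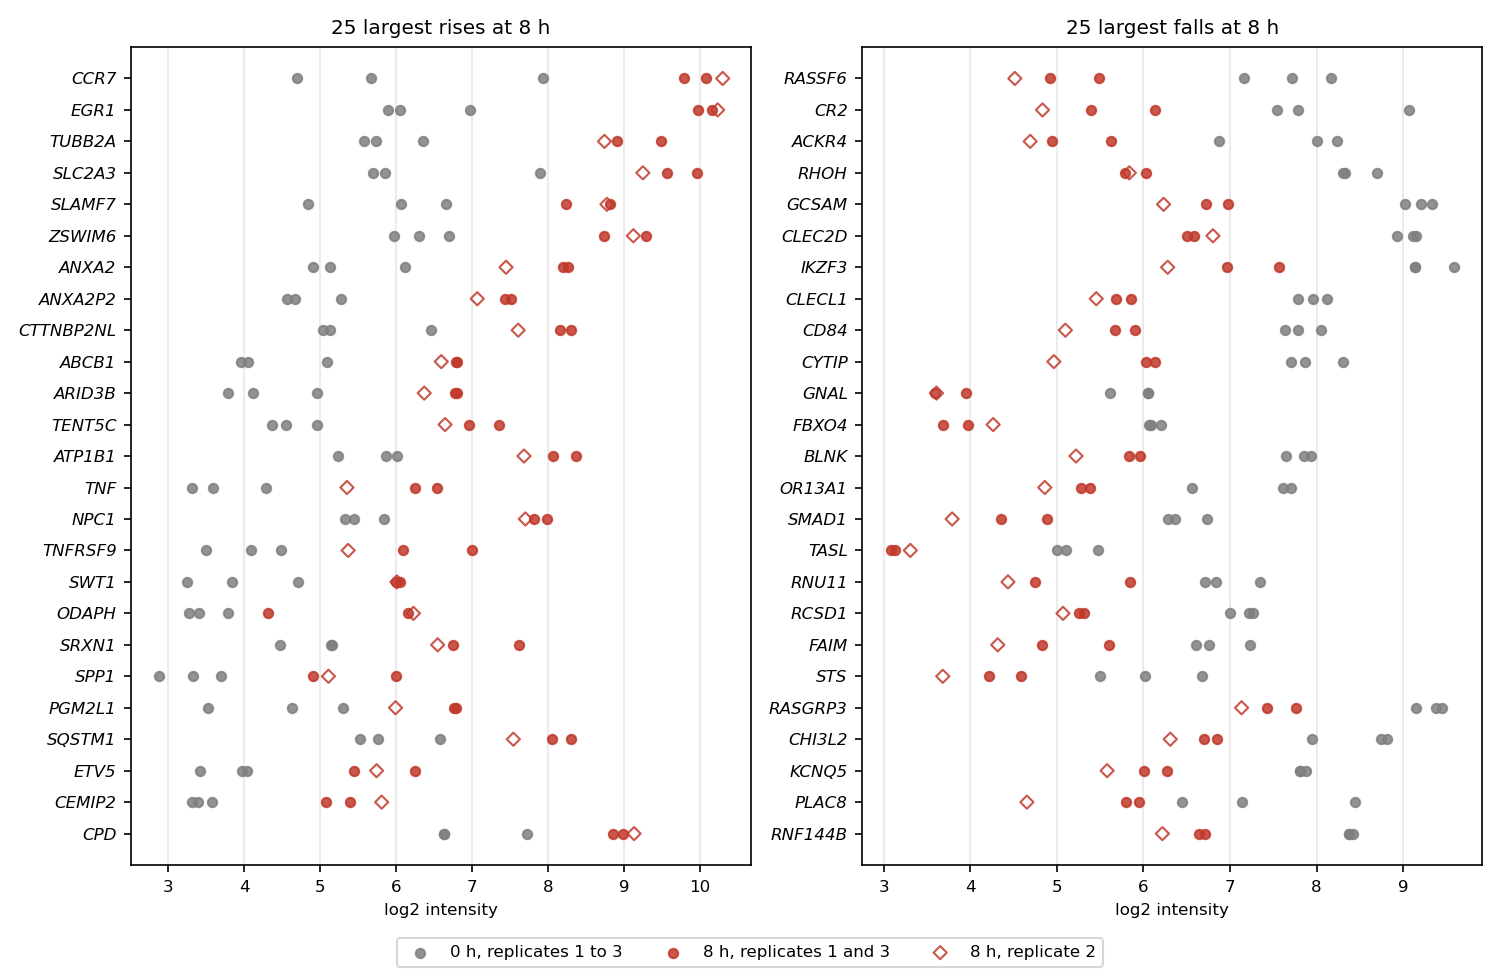
The log2 intensities of the 25 genes with the largest rises (left) and the 25 with the largest falls (right) are plotted by array, with grey circles for 0 h, red circles for replicates 1 and 3 of 8 h and open diamonds for replicate 2 of 8 h. The genes were chosen for groups that do not overlap. Replicate 2 is often the lowest 8 h array, also among the rises, and ODAPH has 1 array of 8 h (4.31) well below the other two.

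TUBB2A, a beta-tubulin, was at 6.35, 5.74 and 5.58 against 9.49, 8.74 and 8.90, higher by 3.16 (SE 0.34, adjusted p = 2.7e-05), 8.92-fold. A dimmer probe set of TUBB2A differed by 1.14, and the close relative TUBB2B by -0.34 (adjusted p = 0.266). The intermediate filament gene VIM rose by 1.60 and VCL, which links actin to adhesion sites, by 0.93, so 3 of 24 measured cytoskeleton genes rose and 0 fell. ANXA2, a calcium-dependent membrane-binding protein, was at 5.13, 4.90 and 6.12 against 8.26, 7.45 and 8.20, higher by 2.58 (SE 0.34, adjusted p = 0.000156). Its pseudogene ANXA2P2, whose probe set can share signal with it, rose by 2.50. ANXA5 rose by 0.65, and S100A10, the partner of ANXA2, differed by 0.90 without passing (adjusted p = 0.282). CEMIP2, a cell surface hyaluronidase, rose by 2.0, the secreted adhesion protein SPP1 by 2.04 and carboxypeptidase D (CPD) by 2.0. ATP1B1, a subunit of the sodium pump, was at 5.23, 5.86 and 6.01 against 8.06, 7.68 and 8.37, a rise of 2.34 (SE 0.25, adjusted p = 2.7e-05).

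Autophagy and lysosome genes formed the list with the highest median, 0.52, and 8 of its 23 measured members rose while 0 fell. NPC1, the lysosomal cholesterol exporter, was at 5.33, 5.45 and 5.84 against 7.98, 7.70 and 7.82, higher by 2.29 (SE 0.25, adjusted p = 2.66e-05). Its partner NPC2 rose by 0.89. SQSTM1, the autophagy receptor p62, went from 5.53, 5.76 and 6.58 to 8.05, 7.54 and 8.30 (2.01, SE 0.33, adjusted p = 0.001). Alpha-galactosidase (GLA) rose by 1.06, the proton pump subunit ATP6V1H by 0.95 and the autophagosome protein MAP1LC3B by 0.81. LAMP2 and ATP6V1A rose by 0.67 and 0.52, and both calls were lost without replicate 2 (adjusted p = 0.0524 and 0.0861), which left 6 of 23 called in both fits. Without replicate 1 of 0 h the calls of ATP6V1H, NPC2 and MAP1LC3B were lost (adjusted p = 0.066, 0.105 and 0.115). Without replicate 3 of 0 h that of GLA was lost (0.104). Each of these calls was lost without other single arrays too, whereas NPC1 and SQSTM1 kept theirs under every alternative. Sialidase NEU1 and GPNMB, lysosomal genes outside the list that were picked after their values were seen, each rose by 1.85.

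Transport, stress and metabolic lists gave few calls each. SLC2A3, a glucose transporter, was at 5.86, 5.70 and 7.89 against 9.56, 9.25 and 9.95, higher by 3.11 (SE 0.44, adjusted p = 0.000269). The fructose transporter SLC2A5 fell by 1.85. SLC2A14, whose sequence is close to SLC2A3, differed by 1.0 and passed with all arrays, but leaving any 1 of the 6 out of the 18-array fit ended its call (adjusted p = 0.0539 to 0.124). Those of SLC2A3 and SLC2A5 were the only calls among 21 glucose transport and glycolysis genes. PGM2L1, which makes glucose-1,6-bisphosphate, rose by 2.04. ABCB1, the drug efflux pump, was at 4.05, 3.95 and 5.08 against 6.81, 6.59 and 6.78, higher by 2.37 (SE 0.26, adjusted p = 2.7e-05). ABCB10 and ABCC4 fell by 0.85 and 0.61, calls lost without replicate 2 (adjusted p = 0.0579 and 0.13). In cholesterol and fatty acid synthesis INSIG1, a feedback inhibitor, rose by 1.24 and HMGCS1 by 1.0 in both fits. SC5D rose by 0.95 and ELOVL6 fell by 1.31, both only with replicate 2 (adjusted p = 0.0792 and 0.0524 without it). The antioxidant gene SRXN1 was at 4.47, 5.16 and 5.14 against 6.75, 6.55 and 7.62 (2.05, SE 0.32, adjusted p = 0.000763). TXNRD1 rose by 0.72, a call lost without replicate 2 (adjusted p = 0.0715), and the other 17 of 19 measured NRF2 and antioxidant genes did not pass. The co-chaperones DNAJB1 and BAG3 rose by 1.42 and 0.98 and HSPA2 by 1.01, 3 of 19 heat shock genes. Without replicate 2 of 0 h or replicate 3 of 8 h the calls of DNAJB1 (adjusted p = 0.115 and 0.0588) and HSPA2 (0.061 and 0.0544) were lost. That of DNAJB1 was also lost without replicate 1 of 0 h or replicate 1 of 8 h (0.0746 and 0.0756). None (0) of 23 genes of the integrated and endoplasmic reticulum stress responses passed with limma, 7 had an unadjusted p under 0.05 (4 higher, 3 lower), and the median was -0.21.

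Of the remaining 25 largest rises, ZSWIM6 was at 6.31, 5.97 and 6.70 against 9.28, 9.12 and 8.74 (2.72, SE 0.28, adjusted p = 1.64e-05). TENT5C, a poly(A) polymerase abundant in plasma cells, went from 4.55, 4.37 and 4.96 to 7.35, 6.64 and 6.95 (2.36, SE 0.23, adjusted p = 1.34e-05). CTTNBP2NL rose by 2.48 and SWT1 by 2.08. ARID3B, a DNA-binding protein, rose by 2.36, but a second probe set of that gene differed by 0.68 and did not pass (adjusted p = 0.411). ODAPH rose by 2.08 only with replicate 2 (adjusted p = 0.0851 without it).

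Of 24 measured B cell receptor signalling genes 6 fell and 1 rose, all of them in both fits, 17 did not pass, and the median was -0.49. CR2, the complement coreceptor that is also the entry receptor of Epstein-Barr virus, was at 7.55, 7.79 and 9.07 against 5.39, 4.83 and 6.13, lower by 2.68 (SE 0.41, adjusted p = 0.000586). BLNK, the adaptor between SYK and BTK, went from 7.94, 7.65 and 7.86 to 5.96, 5.22 and 5.84 (-2.15, SE 0.30, adjusted p = 0.000284). BTK went from 7.46, 7.61 and 7.30 to 6.21, 5.82 and 5.63 (-1.57, SE 0.20, adjusted p = 0.000132). In each of these 3 genes the groups were clearly apart. The inhibitory coreceptor CD72 fell by 0.97 and the kinase BLK by 0.70, and RASGRP3, counted here as well, fell by 1.88. The call of BLK was lost without replicate 2 or 3 of 0 h (adjusted p = 0.215 and 0.0908). It was also lost without replicate 1 or 3 of 8 h (0.18 and 0.0871). LYN, the kinase that starts the cascade and also serves its inhibitory arm, was the member that rose, from 8.12, 8.28 and 8.89 to 9.35, 9.32 and 9.52 (0.97, SE 0.23, adjusted p = 0.0146). Its call was lost without replicate 1 of 0 h, replicate 2 of 0 h or replicate 3 of 8 h (adjusted p = 0.0728, 0.0681 and 0.0518). SYK (-1.02), CD79A (-0.64), CD79B (-0.91), CD22 (-0.98) and BANK1 (-1.24) were lower in the mean and did not pass.

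Of 18 measured B cell transcription factors 5 fell and 0 rose, with a median of -0.64. IKZF3, the lymphoid regulator Aiolos, was at 9.13, 9.13 and 9.59 against 6.97, 6.28 and 7.57, lower by 2.34 (SE 0.28, adjusted p = 7.57e-05). IKZF2 fell by 1.23 and ETS1 by 1.14. PAX5, which holds B cell identity, was at 7.07, 7.51 and 7.0 against 6.0, 5.20 and 6.61, lower by 1.26 with all arrays (adjusted p = 0.0181) and by 0.89 without replicate 2 of 8 h (adjusted p = 0.0896), and its call was also lost without replicate 2 of 0 h (adjusted p = 0.0954). BCL11A fell by 0.93 and lost its call in the same way (adjusted p = 0.207). TCF3, POU2AF1 and BCL6 differed by -0.80, -0.75 and -0.71 and did not pass, though POU2AF1 did with the replicate number as a block (adjusted p = 0.0421).

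Germinal centre genes had the lowest median of the 34 functional lists, -0.83, with 7 of 17 measured members lower and 0 higher. GCSAM, an adaptor of germinal centre B cells, was at 9.20, 9.03 and 9.34 against 6.98, 6.23 and 6.72, lower by 2.55 (SE 0.27, adjusted p = 2.08e-05). BCL7A fell by 1.75, ELL3 by 1.55 and the peptidase CD10 (MME) by 0.89. CD38, an ectoenzyme of germinal centre and plasma cells, fell from 8.60, 8.53 and 8.87 to 7.12, 6.93 and 6.82 (-1.71, SE 0.38, adjusted p = 0.00987). Among plasma cell genes IRF4 went the opposite way: it was at 4.17, 4.30 and 5.46 against 6.45, 6.66 and 6.80, higher by 1.99 (SE 0.35, adjusted p = 0.0017). It was the only riser of 13 measured plasma cell genes, of which CD27, TNFRSF17 and MZB1 (-1.0), a chaperone of antibody assembly, fell. PRDM1 and XBP1, the factors that drive antibody secretion, differed by 0.26 and -1.12 and did not pass.

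Regulators of small GTPases gave more falls than rises. RHOH, a GTPase-deficient protein of blood cells, was at 8.33, 8.31 and 8.70 against 5.79, 5.84 and 6.03, lower by 2.56 (SE 0.22, adjusted p = 6.34e-06). RASSF6, a protein with a RAS-association domain, went from 7.72, 7.16 and 8.16 to 4.93, 4.51 and 5.49 (-2.71, SE 0.34, adjusted p = 0.000101), the largest fall in the comparison. The exchange factors DOCK8, DOCK2 and ARHGEF6 fell by 1.56, 0.91 and 0.90, DOCK2 only with replicate 2 (adjusted p = 0.0802). RND1, which loosens adhesion, rose by 1.47, so 5 of 29 measured members fell and 1 rose. The call of RND1 was lost without any 1 of the 0 h arrays (adjusted p = 0.0686 to 0.0941). It was also lost without replicate 1 or 3 of 8 h (0.0884 and 0.0823). CYTIP, which binds cytohesins and limits leukocyte adhesion, went from 7.87, 7.71 and 8.31 to 6.03, 4.96 and 6.13 (-2.26, SE 0.36, adjusted p = 0.000763). RCSD1, which binds the actin capping protein, fell from 7.27, 7.22 and 7.0 to 5.31, 5.07 and 5.26 (-1.95, SE 0.18, adjusted p = 1.06e-05). Integrins and adhesion molecules gave 1 call of 25, ITGA4.

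TASL, an adaptor of endosomal Toll-like receptor signalling, was at 5.11, 5.47 and 5.0 against 3.08, 3.31 and 3.13 (-2.02, SE 0.20, adjusted p = 1.19e-05). SMAD1, which carries bone morphogenetic protein signals, was at 6.74, 6.29 and 6.37 against 4.89, 3.79 and 4.35 (-2.12, SE 0.26, adjusted p = 7.57e-05). The G protein subunit GNAL fell by 2.19, the F-box protein FBXO4 by 2.15, steroid sulfatase (STS) by 1.90 and the potassium channel KCNQ5 by 1.88. FAIM, which inhibits FAS-induced death, fell by 1.95, and the ubiquitin ligase RNF144B fell by 1.87. RNU11, the U11 RNA of the minor spliceosome, fell by 1.96, and CHI3L2, a chitinase-like protein, by 1.88. OR13A1, of the olfactory receptor family, fell by 2.12. PLAC8 fell by 1.87 only with replicate 2 (adjusted p = 0.0997 without it).

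The cell cycle lists leaned downward with few calls. Of 29 DNA replication genes 5 fell and 0 rose, with a median of -0.38. GINS3 fell by 1.25, the helicase subunits MCM5 and MCM2 by 1.23 and 1.02, the polymerase subunit POLE2 by 1.02 and thymidylate synthase (TYMS) by 0.99, MCM2 only with replicate 2 (adjusted p = 0.0613). Without replicate 1 or 2 of 0 h the calls of POLE2 (adjusted p = 0.168 and 0.142) and TYMS (0.0831 and 0.128) were lost. Both were also lost without replicate 3 of 8 h (0.166 and 0.151). PCNA, the replication clamp, differed by -0.21 and did not pass. Of 26 mitosis genes 4 fell, with a median of -0.41: CDK1, the kinase of mitotic entry, from 7.36, 7.95 and 7.47 to 6.45, 6.51 and 6.21 (-1.21, SE 0.28, adjusted p = 0.0141), MAD2L1 by 1.08, BIRC5 by 1.0 and BUB1B by 0.58. Without replicate 2 of 0 h or replicate 3 of 8 h CDK1 missed the threshold (adjusted p = 0.0816 and 0.0519). BIRC5 and BUB1B lost their calls without replicate 2 (adjusted p = 0.119 and 0.0927), and the proliferation marker MKI67 differed by 0.13. Among CDK inhibitors and cyclins CDKN2D rose by 0.83 and RBL2 fell by 0.86, the latter only with replicate 2 (adjusted p = 0.0783), while CDKN1A, the inhibitor p21, differed by 0.32 (adjusted p = 0.687). The call of CDKN2D was lost without replicate 2 or 3 of 0 h (adjusted p = 0.108 and 0.0533). It was also lost without replicate 1 or 3 of 8 h (0.0681 and 0.0628).

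MYC, the factor that Burkitt lymphoma cells overexpress through a translocation, was at 6.74, 6.58 and 5.88 at 0 h and at 4.95, 5.07 and 4.68 at 8 h. The arrays did not overlap, and the fall was -1.50 (SE 0.20, adjusted p = 0.000191), or -1.59 without replicate 2. MXD1, which competes with MYC for the partner MAX, rose from 3.99, 3.94 and 4.26 to 5.82, 5.72 and 5.63 (1.66, SE 0.22, adjusted p = 0.000141). The ribosome biogenesis genes DKC1 and WDR43 fell by 0.65 each, calls lost without replicate 2 (adjusted p = 0.0608 and 0.0649). In all 3 of 28 measured members fell and 1 rose, and the median was -0.16.

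Chromatin, death and antigen presentation genes gave few calls. Of 17 deacetylases, the enzymes that butyrate inhibits in part, HDAC6 fell by 0.72 and only with replicate 2 (adjusted p = 0.108 without it). Of 17 acetyltransferase and bromodomain genes KAT6B fell by 1.25 in both fits, and KAT7, KAT5 and NCOA2 fell by 1.15, 1.14 and 0.95 only with replicate 2 (adjusted p = 0.13, 0.14 and 0.103). In the BCL2 family MCL1, an inhibitor of apoptosis, rose by 1.02, BAK1 and BCL2L12 by 1.0 and 0.99, and BCL2L13 fell by 1.10. The calls of MCL1, BAK1 and BCL2L12 did not survive every omission of a single array. With replicate 2 of 0 h omitted, their adjusted p values were 0.0918, 0.0822 and 0.176. Omitting replicate 3 of 0 h gave 0.0651, 0.0705 and 0.121, and omitting replicate 3 of 8 h gave 0.0616, 0.102 and 0.191. MCL1 and BCL2L12 also fell short with replicate 1 of 8 h omitted (0.103 and 0.0596). APAF1, the core of the apoptosome, was at 6.27, 6.13 and 5.78 against 7.88, 7.65 and 7.55 (1.63, SE 0.20, adjusted p = 8e-05), and CASP8 rose by 0.69 only with replicate 2 (adjusted p = 0.0587). Of 19 p53 targets FAS, DDB2 (-1.19) and RRM2B (-1.16) fell, DDB2 only with replicate 2 (adjusted p = 0.0555), and TNFRSF10B and PLK3 (0.62) rose. The call of PLK3 was lost without replicate 2 or 3 of 0 h (adjusted p = 0.0909 and 0.0734) or replicate 3 of 8 h (0.107). RFX5, which switches on MHC class II genes, fell by 1.11 and was the only call among 14 class II genes, and ERAP1, a peptide trimming enzyme, fell by 0.93, the only call among 10 class I genes and one that was lost without replicate 2 (adjusted p = 0.0827). None (0) of 25 interferon-stimulated genes passed with limma, also at an unadjusted p under 0.05 (0): their median was 0.13 with all arrays and -0.06 without replicate 2, and IFIT1 stood at 3.24 at 0 h and 3.38 at 8 h.

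**Figure D3:**
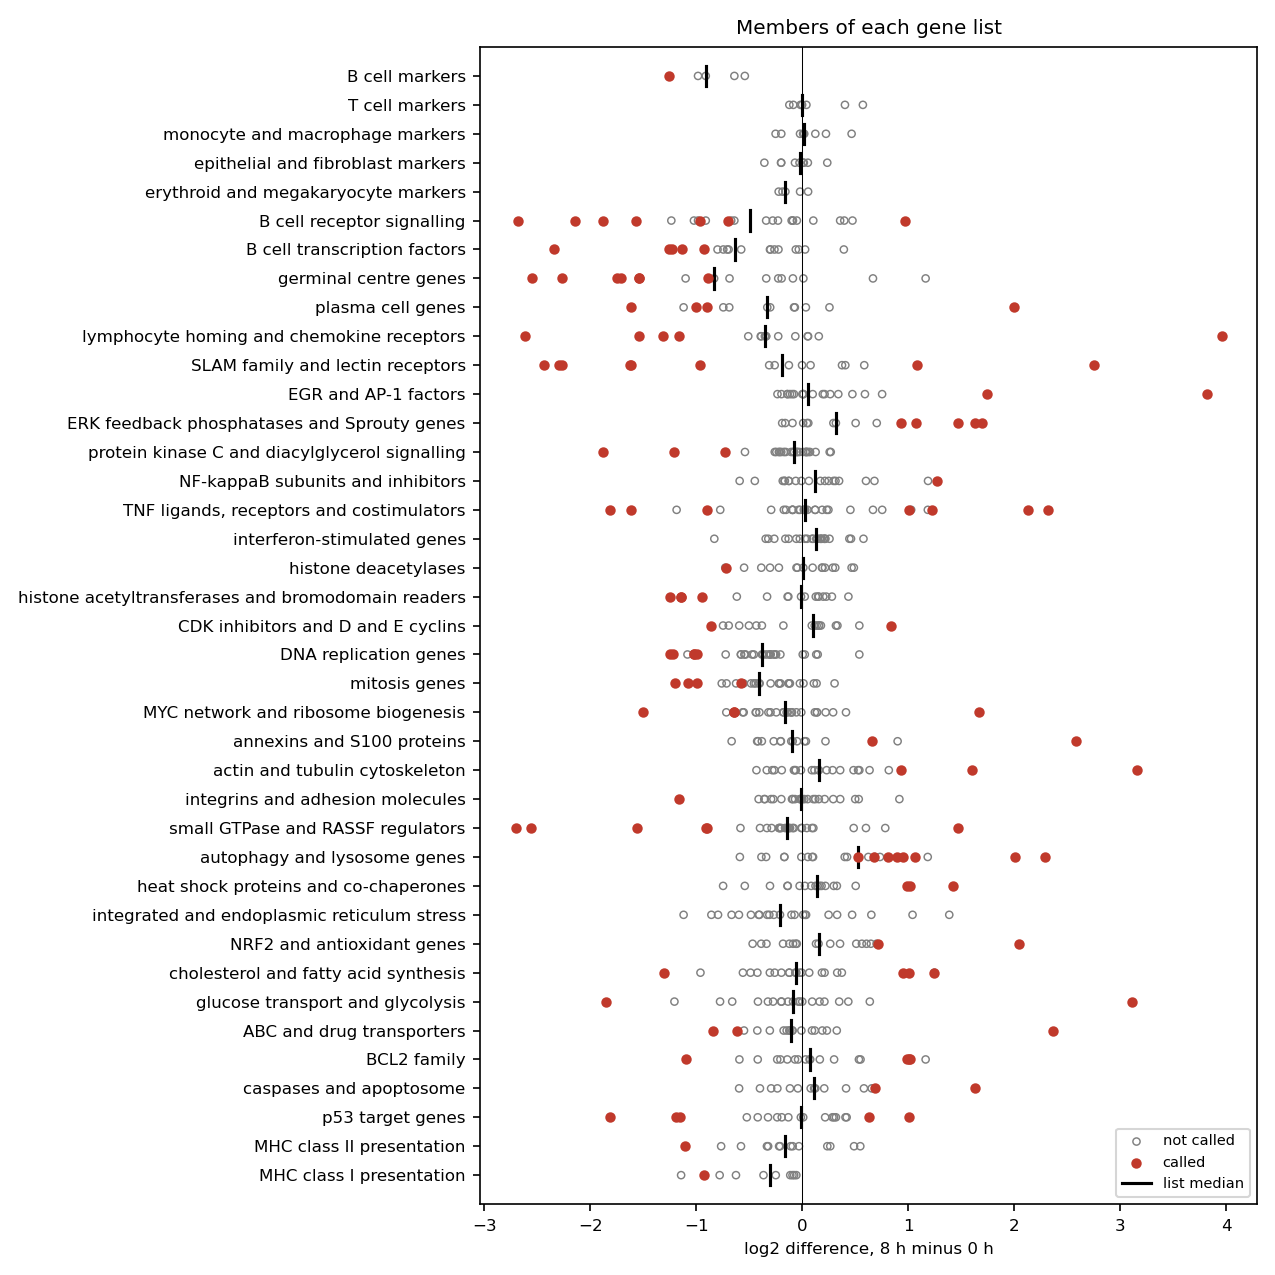
Each point is the log2 difference (8 h minus 0 h) of a measured member of a gene list, with lists in rows, filled red points for genes that passed the test, open grey points for those that did not, and black bars for list medians. The medians run from -0.91 for the 5 B cell markers to 0.52 for the autophagy and lysosome genes.

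Replicate 2 of 8 h decided some genes. It lay farthest from the mean of replicates 1 and 3, among called genes, for SNORD53, CCDC12, SLC25A26, COIL and ANKRD50. COIL, the scaffold of Cajal bodies, was at 7.03, 6.82 and 7.15 against 6.39, 4.79 and 6.17, lower by 1.22 with that array and by 0.72 without it (adjusted p = 0.0429); its call was lost without replicate 1 or 3 of 0 h (adjusted p = 0.0514 and 0.0615). ANKRD50, an endosomal sorting protein, was at 5.64, 5.14 and 5.82 against 7.51, 6.28 and 8.02, higher by 1.74 with it and by 2.23 without it. SNORD53, CCDC12 and SLC25A26 differed by -0.88, -0.68 and -0.74 without it and no longer passed. FGR, a SRC-family kinase, and the small nucleolar RNA gene SNORA75 also passed only with it (-1.79 and -1.65, against -1.39 and -1.38 without it).

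The largest change found only without replicate 2 was that of MIR21, the gene of a microRNA often raised in tumours. It was at 3.16, 2.94 and 3.29 at 0 h and at 5.14, 3.24 and 5.66 at 8 h, so replicate 2 lay among the 0 h arrays. The difference was 1.55 with it (adjusted p = 0.062) and 2.27 without it (adjusted p = 0.00186). The array measures RNA of the gene and does not tell mature from precursor. The mature sequence from RefSeq on GRCh38.p14 (chr17:59841273-59841294, plus strand) is given with its seed in capitals.
hsa-miR-21-5p: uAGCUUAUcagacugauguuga
Of 164 measured genes with MIR symbols 1 passed with all arrays and 2 without replicate 2. SLC37A3, ZBTB43 and INSIG2 likewise passed without it but not with it, at 1.77, 1.65 and 1.64 against 1.09, 1.11 and 1.25 with it, and SMIM19 fell by 1.63 against -1.23. With the replicate number as a block INSIG2 passed with all arrays too (adjusted p = 0.0276).

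**Figure D4:**
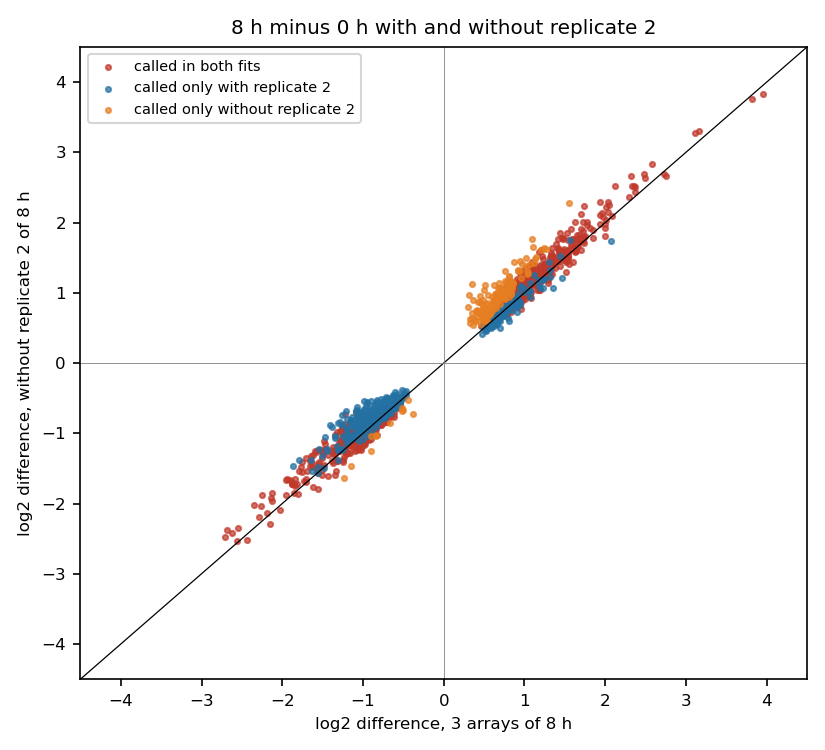
The log2 difference of each called gene in the fit of all arrays (horizontal) is plotted against its difference without replicate 2 of 8 h (vertical), with the diagonal marking equal values, red points for the 841 genes called in both fits, blue for the 389 called only with that array and orange for the 163 called only without it. Most blue points are falls that are smaller without the array, and most orange points are rises that are larger without it.

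Levels at the neighbouring times were read beside those at 8 h; they share the 0 h arrays as their start, and no test between times was made. In order of the times 0, 4, 8 and 12 h, EGR1 averaged 6.30, 10.19, 10.12 and 10.17, CCR7 averaged 6.10, 9.53, 10.05 and 9.48, and MYC averaged 6.40, 5.01, 4.90 and 5.04, so these 3 means were near their 8 h level at 4 h already. A later pattern was seen for ANXA2, at 5.39, 5.79, 7.97 and 9.13, for SPP1, at 3.30, 3.64, 5.34 and 6.80, and for GPNMB, at 5.61, 5.41, 7.46 and 7.85. RASGRP3, at 9.33, 8.83, 7.44 and 6.40, and BLNK, at 7.82, 7.32, 5.67 and 5.24, were likewise nearer their 0 h mean than their 8 h mean at 4 h. RHOH had means of 8.44, 6.80, 5.89 and 5.75 over these times and 8.11 at 48 h, so its 48 h mean was close to that of 0 h. CLEC2D had means of 9.07, 7.92, 6.63 and 6.08 up to 12 h and 8.09 at 48 h. IFIT1, at 3.38 at 8 h, averaged 10.10 at 24 h.

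**Figure D5:**
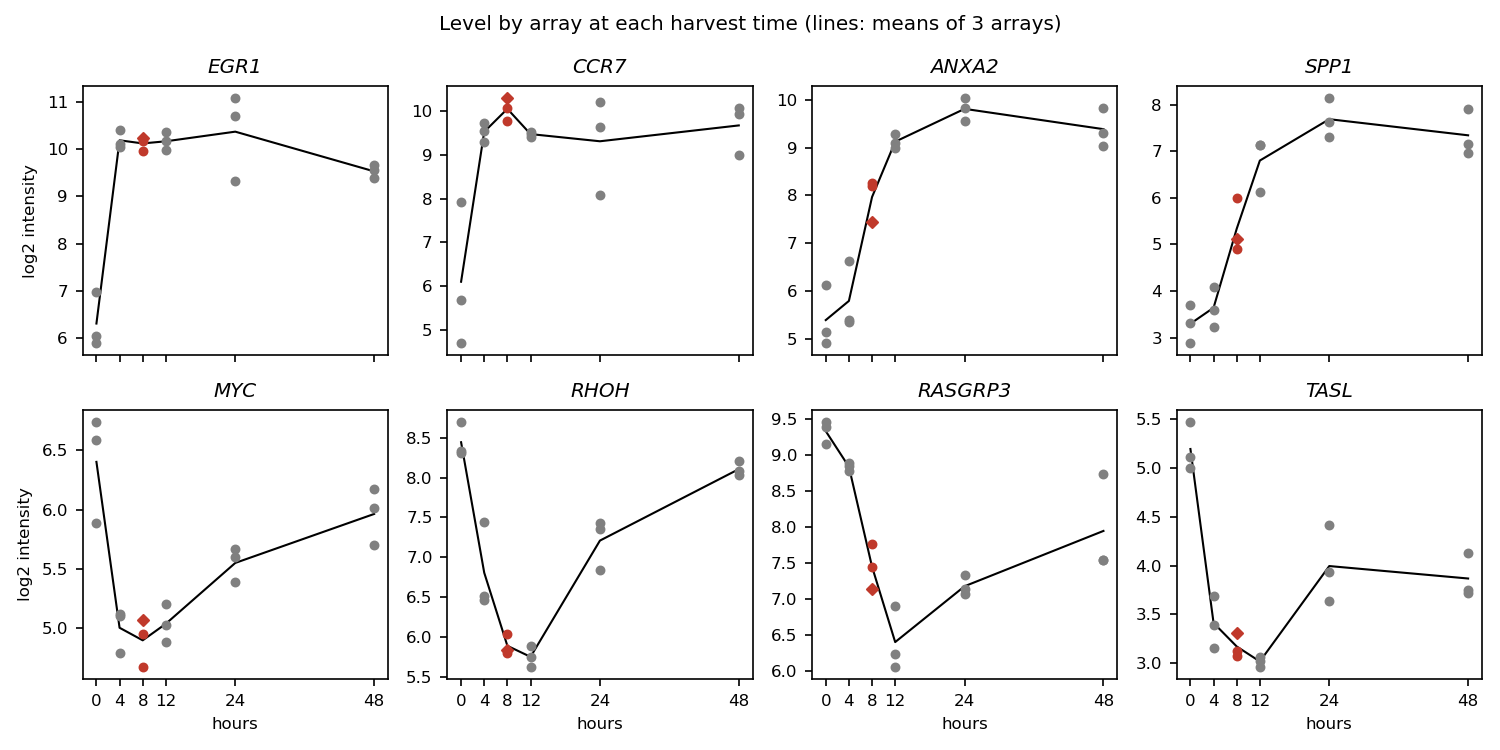
The log2 intensity of 8 genes is plotted against harvest time in hours, with a point per array, the 8 h arrays in red, replicate 2 of 8 h as a diamond and a line through the means of 3 arrays. At 8 h EGR1, CCR7 and MYC are near their 4 h means, whereas ANXA2, SPP1 and RASGRP3 are between their 4 h and 12 h means.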

How the data were processed

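RNA of 18 Raji cell samples was hybridised to Affymetrix arrays as biotinylated cDNA, per the labels' protocols. The authors' deposited table holds 1 log2 intensity per probe set, normalized between arrays by a method not given in the sources used here; the log base was read from the range of the values. Of 33297 probe sets 19460 named 1 gene, 1754 named several and 12083 none in the platform annotation, and 18417 genes remained. Values were used as deposited, with no filter on dim genes. With limma 3.58.1 (R 4.3.3) a model of 6 time means was estimated from the 18 arrays and tested as 8 h minus 0 h (12 residual and 5.58 prior degrees of freedom, two-sided moderated test, Benjamini-Hochberg over all genes); a gene changed, or was called, at an adjusted p under 0.05. The same fit was made without replicate 2 of 8 h. On simulated data the test recovered 97% of log2 changes of 2 and 65% of changes of 1 (of 200 changed among 18417 genes), with 5 false calls. The simulated noise was independent and alike on all arrays, with no array of narrow range and no shared deviations of same-numbered arrays. These rates therefore need not hold for the real arrays. No counts stand behind an intensity, so precision is given only as the spread between arrays.

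The 39 gene lists (758 genes, 695 measured, of which 49 rose and 63 fell), the 10 symbol families and the comparison itself were chosen with earlier results of these data known; genes not measured were not analysed here. Named genes were the 25 largest rises and falls among called genes with separate arrays, up to 5 called members per list by size (with up to 2 further members of smallest p where fewer than 2 were called) and the 5 genes most moved, gained or lost through replicate 2 of 8 h; others that are named were chosen after their values were seen. Same-numbered arrays of 0 h and 8 h deviated together in 3 of 3 pairs (r = 0.20, 0.19 and 0.14), although over all times 20 of 45 same-numbered pairs did, and a fit with the replicate number as a block was run. Other alternatives were each array left out, only the 6 arrays, other normalizations, array weights, a filter on dim genes and other summaries of probe sets. Tables and plots were made in pandas 2.3.3 and matplotlib 3.10.9 under Python 3.11.15. Promoter and microRNA sequences are RefSeq's on GRCh38.p14 (14239 of 18417 genes matched by symbol).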

Additional observations from a re-analysis of the deposited data

How the results depend on the processing

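The count of 1230 changed genes lay between 759 (without replicate 2 of 0 h) and 1004 when each of the 6 arrays was left out in turn. It was 575 in a fit of the 6 arrays alone, 625 in a fit of the 5 arrays left without replicate 2 of 8 h, 786 with each array centred and scaled to the same interquartile range, and 2183 with array weights, in which replicate 2 of 8 h had a weight of 0.25. In the paired analysis with the replicate block the count was 1306, or 641 with the block in the fit of the 6 arrays; the 5-array fit and the latter were added after the data were seen. In the fit of 18 arrays the replicate block ended the call of 0 named genes and added INSIG2 (adjusted p = 0.0276), POU2AF1 (0.0421) and SIRT5 (0.0287). The fit of the 6 arrays ended 56 of 171 named calls without the block and 46 with it; 7 were lost only with it (BCL7A, DOCK2, ERAP1, GPR183, MCM5, TNFRSF10B and ZNF22) and 17 only without it. The count of genes changed at least 2-fold was 454 to 588 when an array was left out and 435 to 625 over the other settings. The share of calls that were higher, 52.4%, was 66.9% without replicate 2 of 8 h, 66.4% in the 5-array fit and 44.8% to 58.8% under the other settings; the cause was not tested. Of the 50 largest rises and falls 48 passed under every alternative, with the exceptions ODAPH and PLAC8, and of 171 named or listed genes that had changed 86 did; leaving out a given array ended 30 to 46 of these 171 calls, most often replicate 2 of 0 h. No named gene changed sign while called.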

Other observations

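Genes of the mitochondrial ribosome and of respiratory complex I, taken by symbol, lay below 0 nearly throughout. Of 73 measured mitochondrial ribosomal protein genes 67 were lower in the mean at 8 h, 13 fell and 0 rose, with a median of -0.39, and 9 of the 13 passed without replicate 2 as well. MRPL9 was at 8.13, 8.37 and 8.22 against 7.50, 7.20 and 7.36 (-0.89, adjusted p = 0.00173), MRPL15 fell by 1.10 and MRPS16 by 0.80. MRPS18B and MRPS26 fell by 1.35 and 1.09, MRPS18B only with replicate 2 of 8 h (adjusted p = 0.0727 without it). Of 33 complex I genes 32 were lower in the mean, with a median of -0.44; 0 passed with limma after adjustment, and 15 had an unadjusted p under 0.05. Of 66 cytosolic ribosomal protein genes 59 were lower in the mean and 2 fell, RPL22L1 among them (-1.28, adjusted p = 0.00371). Small nucleolar RNA genes gave 7 falls and 1 rise of 127, of which 1 each passed in both fits. Among all genes 3.18% fell and 3.5% rose, and no family was tested against those shares. The share of all genes that were lower in the mean was not counted. Mean 0 h levels of the mitochondrial ribosomal, complex I and cytosolic ribosomal genes were 7.17 to 7.24, 7.61 to 7.80 and 9.5 to 9.8. Of the 4604 genes with the highest 0 h levels (from 6.28) 399 fell and 306 rose. Over those 4604 genes replicate 2 lay at a median of -0.18 from the mean of replicates 1 and 3.

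Zinc finger genes with ZNF symbols gave 32 rises and 9 falls of 480 measured, 21 and 6 of them in both fits. Among all genes 3.5% rose and 3.18% fell. On chromosome 19 lie 233 of the 480, and 25 of the 32 that rose and 0 of the 9 that fell. On chromosome 10 lie 15 of the 480, and 0 of the risers and 5 of those that fell. ZNF248, ZNF25, ZNF33A and ZNF33B are neighbours there in RefSeq's order of protein-coding genes, with ZNF37A between the last 2. ZNF33A was at 6.85, 6.62 and 6.98 against 5.30, 4.49 and 5.37 (-1.76, adjusted p = 0.000141), ZNF33B fell by 1.58 and ZNF25 by 1.48, whereas ZNF37A differed by -0.34 (adjusted p = 0.515). ZNF33A and ZNF33B are close copies, so their probe sets may share signal. ZNF248 fell by 0.79 only with replicate 2 (adjusted p = 0.104 without it), and ZNF22, farther along, fell by 0.88. On chromosome 19, 6 of 10 neighbouring measured genes rose in a stretch from ZNF528 to ZNF468, the most of any 10 neighbours: ZNF468 was at 6.55, 6.12 and 6.08 against 8.26, 7.39 and 8.27 (1.72, adjusted p = 7.57e-05), ZNF701 rose by 1.33 and ZNF28 by 1.27. ZNF597 and ZNF791, elsewhere, rose by 1.82 and 1.73. This arrangement was noticed after the data were seen and was not tested.

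Further changes outside the lists were rises of STAT3, a cytokine-activated transcription factor, from 6.41, 6.59 and 6.87 to 8.65, 8.26 and 8.86 (1.96, adjusted p = 0.000358), of LPIN1, a phosphatidate phosphatase, by 1.94 and of RASA3, which turns off RAS proteins, by 1.97. SLC41A2, a magnesium transporter, rose by 1.67 and the motor gene KIF3B by 1.08. Solute carriers gave 17 rises and 7 falls of 359 measured, and kinesins 3 rises and 0 falls of 38. Among all genes 3.5% rose and 3.18% fell, and the counts of these 2 families were not tested against those shares.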
